A study of Homo sapiens with 3 samples.

Results

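Polyamine metabolism was followed through 10 genes on 3 Affymetrix expression arrays of KYSE150 cells, an established line from a human oesophageal squamous carcinoma. The 10 genes were ODC1, AMD1, SRM, SMS, SAT1, OAZ1, OAZ2, AZIN1, SMOX and PAOX, taken from 18132 genes with a probe set paired with a single symbol. They had 35 such probe sets among the 49395 on the array. All 10 were above the filter on dim genes, which 12232 genes passed. The pathway was chosen by measured values: ODC1 had already been seen among the highest genes with LOXL2 delta72 on these arrays, so its difference from Control is given as a description. The cells had been transfected with a pcDNA3.1 plasmid for LOXL2 delta72, with a pcDNA3.1 plasmid for LOXL2 WT, or with the vector (Control), and RNA was extracted 48 h later. The labels name the delta72 form without describing it, and the share of cells that took up a plasmid is not given in the sources used here. Each group had 1 array, so there was no replicate spread, no test was made, and "higher" and "lower" describe these arrays only. The scale of the deposited values is not stated. They were taken as log2 intensities from their range of 2.07 to 14.56 over the arrays, and every difference, fold and count rests on that reading.

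Polyamines are small, positively charged molecules that bind nucleic acids and are needed for growth and translation. Putrescine is made from ornithine by ornithine decarboxylase (ODC1), the step at which synthesis is mainly controlled. Spermidine and spermine are then built from it by adding aminopropyl groups, which AMD1 supplies. The pathway is kept in check by antizymes, which bind the decarboxylase and send it to the proteasome, and by acetylation and oxidation that return spermine and spermidine to putrescine or out of the cell. ODC1 is a well-known target of the transcription factor MYC. Much of the control of these enzymes acts on translation and protein stability, which arrays of RNA do not measure.

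ODC1 was the only one of the 10 genes at least 1.5-fold different from Control on either LOXL2 array. Its single probe set read 11.24 on the delta72 array, 11.12 on the WT array and 9.97 in Control cells. Both LOXL2 arrays were high and close to each other, and the Control array was low. The difference was 1.27 (2.41-fold) for delta72 minus Control and 1.15 (2.22-fold) for WT minus Control. From the highest difference down, ODC1 had rank 9 of 12232 genes with delta72 and rank 12 with WT. Its 2 differences share the Control array and are not independent of each other. ODC1 was also the only one of the 10 genes with 1 single-symbol probe set, so no further reading of it was used. Probe sets with several symbols or none were not searched for it. In RNA from whole cultures, more cells with the transcript and more transcript per cell cannot be told apart.

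With delta72, 1.28% of all genes above the filter read 1.5-fold or more above Control and 0.499% read 1.5-fold or more below it. With WT these shares were 1.85% and 0.867%. These are 157 higher and 61 lower genes with delta72 and 226 and 106 with WT, which became 123 and 77, and 169 and 139, when the arrays were shifted to a common median. At 2-fold, 0.123% were above Control with delta72 and 0.18% with WT. Beside these shares, 1 of the 10 polyamine genes was at least 1.5-fold higher, 1 was at least 2-fold higher and 0 were at least 1.5-fold lower, with either form. ODC1 was that gene in both comparisons, and since it led to the choice of the pathway nothing is read from this count. The median difference of the 10 genes was -0.02 with delta72 and -0.0091 with WT, and over all genes it was 0 and -0.0094. The other 9 genes had 34 probe sets, and 0 of these reached 1.5-fold in any of the 3 comparisons.

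**Figure D1:**
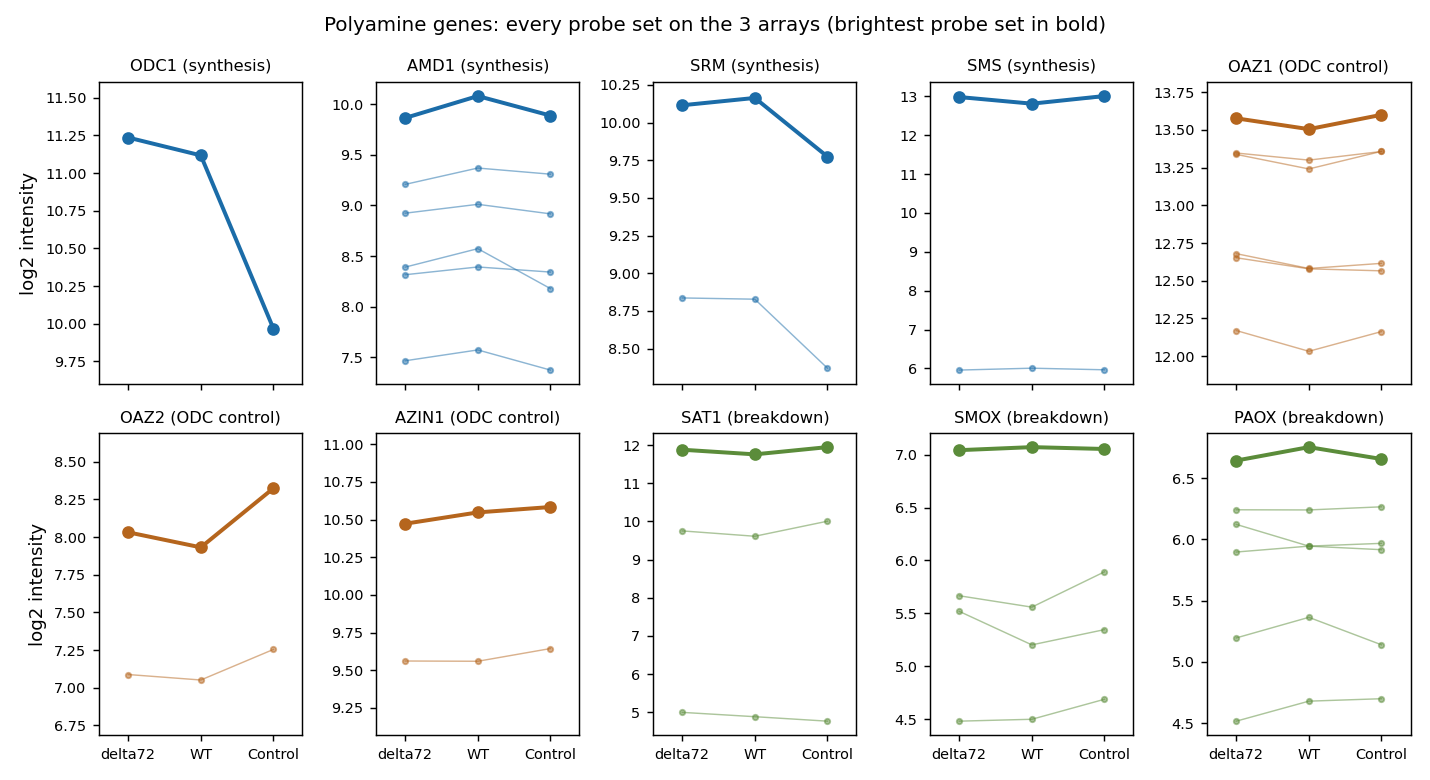
Log2 intensity (vertical axis, with its own range in each panel) of every probe set of the 10 polyamine genes on the LOXL2 delta72, LOXL2 WT and Control arrays (horizontal axis, 1 array each). Lines join the readings of a probe set, bold for the brightest of the gene. ODC1 stands at 11.24 and 11.12 on the LOXL2 arrays, against 9.97 on the Control array, and both SRM probe sets are higher on both LOXL2 arrays.

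The size of a difference was read against a pair of yardsticks from the same arrays, neither of which includes biological error. The first is the SD between probe sets of the same gene, pooled over 7163 genes, which was 0.145 with delta72 and 0.17 with WT, each against Control, and 0.113 between the forms. The second is the difference of the 23 Affymetrix background probe sets, whose largest size was 0.173, 0.285 and 0.152 in the same comparisons. Against Control these sizes were falls, and the largest rise was 0.05 with delta72 and 0.03 with WT. The falls grew with the number of G and C bases, with WT from 0.0043 at 10 to -0.285 at 24. The second yardstick is thus a directional shift more than a scatter, and the G and C content of the pathway probe sets was not examined. By their brightest probe sets, ODC1, SRM and OAZ2 exceeded both yardsticks with either form against Control, and the remaining 7 genes stayed below the background yardstick. Single further probe sets passed it, among them the second of SAT1, at -0.25 with delta72 and -0.39 with WT, and an AMD1 probe set at 0.21 and 0.39. With the median intensity over probe sets on each array, which for SAT1 is that second probe set of SAT1, the gene passed it in both comparisons. The SD of the differences over all genes was 0.225 with delta72 and 0.255 with WT, larger than the first yardstick. The share of all genes past the yardsticks was not counted, so nothing is read from the count of pathway genes past them.

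After ODC1, the highest of the 10 genes was SRM, which encodes spermidine synthase. Its brightest probe set read 10.11 on the delta72 array, 10.16 on the WT array and 9.77 in Control cells. Its second probe set read 8.84 on the delta72 array, 8.83 on the WT array and 8.37 in Control cells. Both probe sets were higher on each LOXL2 array than on the Control array. The brightest differed by 0.34 (1.27-fold) with delta72 and by 0.39 (1.31-fold) with WT, and the second by 0.47 and 0.46. Among all genes the brightest probe set of SRM had rank 811 from the top with delta72 and rank 807 with WT.

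The start regions of ODC1 and SRM are shown because these were the 2 genes of the pathway with the highest values on the LOXL2 arrays relative to Control, and the only ones with an E-box in the windows searched. The sequences are RefSeq's on GRCh38.p14. The first 2 are the 250 bases before the annotated start of the gene, on the minus strand at chr2:10448328-10448577 for ODC1 and at chr1:11060019-11060268 for SRM. The third is a stretch of 30 bases at chr2:10448024-10448053, also on the minus strand, which lies within the ODC1 gene and before a second annotated start. Capitals mark the E-box CACGTG, which MYC and its partner MAX bind, and the GC box GGGCGG, which SP1 binds, on either strand. In the third sequence they mark the E-box only. No marked motifs overlap.
ODC1 upstream: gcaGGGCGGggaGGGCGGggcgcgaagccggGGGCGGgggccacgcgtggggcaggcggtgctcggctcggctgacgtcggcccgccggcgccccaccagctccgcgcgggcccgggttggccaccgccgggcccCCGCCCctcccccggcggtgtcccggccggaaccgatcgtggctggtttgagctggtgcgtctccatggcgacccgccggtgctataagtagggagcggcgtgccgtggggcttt
SRM upstream: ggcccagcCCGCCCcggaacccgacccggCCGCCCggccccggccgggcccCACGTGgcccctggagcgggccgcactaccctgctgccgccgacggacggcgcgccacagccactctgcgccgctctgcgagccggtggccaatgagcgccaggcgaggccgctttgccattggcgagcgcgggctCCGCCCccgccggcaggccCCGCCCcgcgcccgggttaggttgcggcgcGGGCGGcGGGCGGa
ODC1 second start: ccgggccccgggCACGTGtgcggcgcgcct
The SRM window holds 1 E-box, whose first base lies at -199 from the start, and 6 GC boxes. The ODC1 window before the first start holds 0 E-boxes and 4 GC boxes, and the E-box before the second start begins at -29 from it.

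RefSeq windows of this kind were matched for 7 of the 10 genes, ODC1, AMD1, SRM, SMS, SAT1, OAZ1 and OAZ2, with 10 windows in all. An E-box was found in 2 of these 10 windows, 1 each of ODC1 and SRM, and in 6.34% of the 35116 windows of the table. The GC box was found in 9 of the 10, all but that of SAT1, and in 42.6% of all windows. The windows of a gene with several starts can overlap, as those of AMD1 do. The cyclic AMP response element TGACGTCA and the letters TGATGNAA, a form of the element bound by ATF4 and its partners, were found in 0 of the 10 windows. They were in 1.65% and 3.14% of all windows. These matches describe letters in the windows, and binding was not measured.

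AMD1 encodes the decarboxylase of S-adenosylmethionine. The brightest AMD1 probe set read 9.86 on the delta72 array, 10.08 on the WT array and 9.89 in Control cells. The WT array was the highest, and the other 2 arrays were close. The differences from Control were -0.02 with delta72 and 0.19 with WT. All 6 probe sets of AMD1 were higher with WT than in Control, by 0.05 to 0.39, whereas with delta72 3 were higher and 3 lower, between -0.10 and 0.21.

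SMS, which encodes spermine synthase, was the synthesis gene with the lowest difference from Control. The brightest SMS probe set read 12.98 on the delta72 array, 12.81 on the WT array and 13.01 in Control cells. The WT array was the lowest. The difference was -0.03 with delta72 and -0.20 with WT, and the dimmest of its 3 probe sets differed by -0.0071 and 0.04. For the 4 synthesis genes, the differences with WT were 1.15 for ODC1, 0.39 for SRM, 0.19 for AMD1 and -0.20 for SMS. With delta72 the values were 1.27 for ODC1, 0.34 for SRM, -0.02 for AMD1 and -0.03 for SMS.

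**Figure D2:**
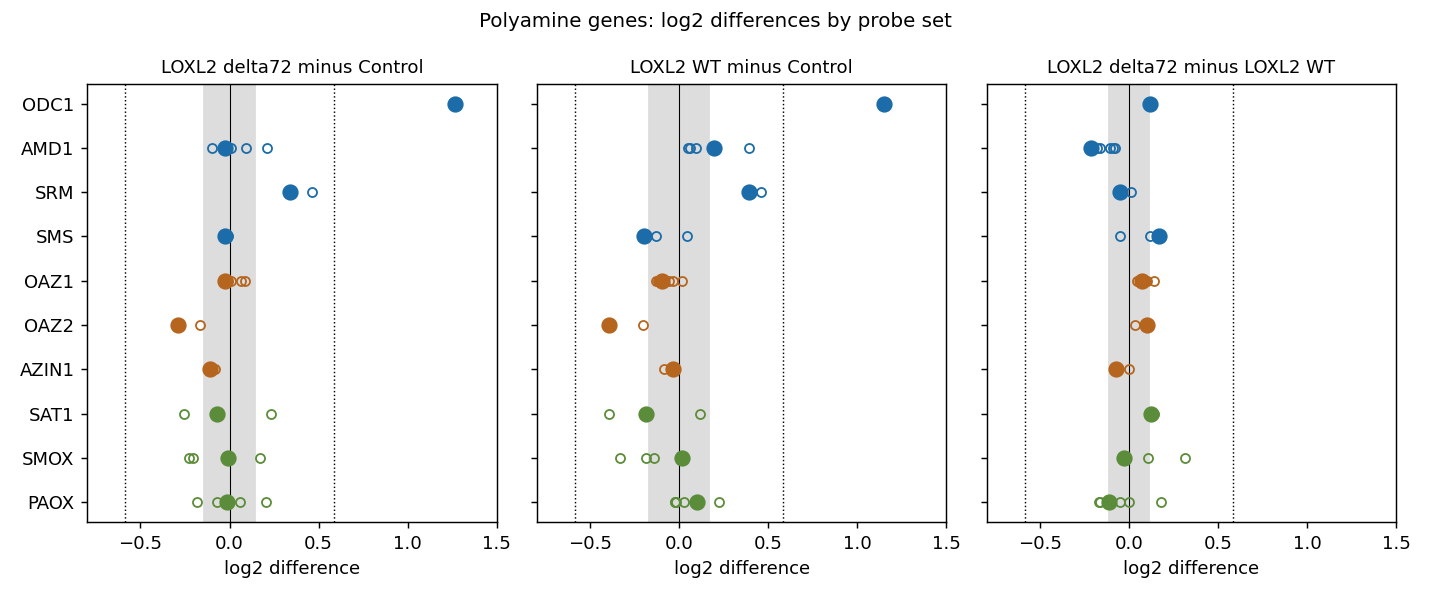
Log2 differences (horizontal axis) of the 10 polyamine genes (rows) in 3 panels, which set LOXL2 delta72 against Control, LOXL2 WT against Control and LOXL2 delta72 against LOXL2 WT. Filled points are the brightest probe set of a gene and open points its other probe sets, the grey band is the pooled SD between probe sets of a gene to either side of 0, and dotted lines mark 1.5-fold. ODC1 alone lies past 1.5-fold, at 1.27 and 1.15, and both probe sets of OAZ2 lie below 0 in the first 2 panels.

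By brightest probe set, the antizyme gene OAZ2 was the lowest of the 10 genes in both comparisons with Control. With the median intensity over probe sets on each array, which for SAT1 is its second probe set, SAT1 was at -0.25 with delta72 and -0.39 with WT. OAZ2 was then at -0.23 and -0.30. By the median of the probe set differences, SAT1 was at -0.07 and -0.19 and OAZ2 again at -0.23 and -0.30, so this order depends on the summary. Antizymes bind ODC1 protein, block its pairing into the active dimer and hand it to the proteasome. The brightest OAZ2 probe set read 8.03 on the delta72 array, 7.93 on the WT array and 8.32 in Control cells. The second read 7.09 on the delta72 array, 7.05 on the WT array and 7.25 in Control cells. Both LOXL2 arrays lay below the Control array in both probe sets. The differences of the brightest were -0.29 (1.22-fold lower) with delta72 and -0.39 (1.31-fold lower) with WT, and those of the second -0.17 and -0.20. From the lowest difference up, OAZ2 had rank 749 of 12232 genes with delta72 and rank 479 with WT. The 23 background probe sets ran from -0.17 to 0.05 with delta72 and from -0.29 to 0.03 with WT, mostly the same way, and their part in the OAZ2 values was not tested.

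OAZ1, the antizyme found in nearly all tissues, was close on the 3 arrays. Its brightest probe set read 13.58 on the delta72 array, 13.51 on the WT array and 13.60 in Control cells, and differed from Control by -0.02 with delta72 and -0.10 with WT. Over its 6 probe sets the differences ran from -0.02 to 0.09 with delta72 and from -0.13 to 0.01 with WT. Antizyme protein is made only after a ribosomal frameshift that polyamines promote, and the arrays do not read that step.

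AZIN1 encodes the antizyme inhibitor, a relative of ODC1 without enzyme activity that binds antizymes in its place. Its brightest probe set read 10.47 on the delta72 array, 10.55 on the WT array and 10.58 in Control cells. The 3 readings were close, with the Control array the highest. The differences from Control were -0.11 with delta72 and -0.04 with WT, and its other probe set differed by -0.08 with each.

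None of the 3 breakdown genes reached 1.5-fold in any probe set. SAT1 encodes the acetyltransferase that marks spermidine and spermine for oxidation or export. In its brightest probe set it read 11.88 on the delta72 array, 11.76 on the WT array and 11.95 in Control cells, with the LOXL2 arrays below the Control array. The differences were -0.07 with delta72 and -0.19 with WT. A second probe set of SAT1, above the filter and in the same direction, at 9.75 on the delta72 array, 9.61 on the WT array and 10.01 in Control cells, differed by -0.25 and -0.39. The third, below the filter on every array, differed by 0.23 and 0.12 in the other direction.

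SMOX, the spermine oxidase gene, read 7.04 on the delta72 array, 7.07 on the WT array and 7.05 in Control cells in its brightest probe set. These readings lay within 0.03 of each other. The differences from Control were -0.01 with delta72 and 0.02 with WT, while its other 3 probe sets, all dimmer, ran from -0.23 to 0.17 with delta72 and from -0.33 to -0.14 with WT. PAOX encodes the oxidase of acetylated polyamines. Its brightest probe set read 6.64 on the delta72 array, 6.75 on the WT array and 6.66 in Control cells, with the WT array the highest. It differed from Control by -0.01 with delta72 and 0.10 with WT. Of its 6 probe sets, 2 were higher and 4 lower with delta72, and 3 were higher and 3 lower with WT.

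Setting delta72 directly against WT leaves the Control array out. In this comparison 0 of the 10 genes reached 1.5-fold in either direction, beside 0.18% of all genes higher and 0.0409% lower with delta72. ODC1 read 0.12 above WT with delta72 (1.09-fold), rank 1997 of 12232 from the highest. AMD1 had the lowest difference, at -0.22 (1.16-fold lower with delta72), and SMS the highest, at 0.17 (1.13-fold). By brightest probe set, these were the 2 genes of the pathway beyond the largest background probe set difference of 0.152. The SD of this difference over all genes was 0.132. The share of all genes past 0.152 was not counted, so nothing is read from these 2 genes passing it. With the median intensity over probe sets on each array SMOX was the highest, at 0.21, but the median of its probe set differences was 0.04. All 6 AMD1 probe sets were lower with delta72 than with WT, between -0.22 and -0.08. All 6 OAZ1 probe sets were higher, between 0.05 and 0.14, and so were all 3 SAT1 probe sets, between 0.11 and 0.14. Of the SMS probe sets, 2 were higher and the dimmest was at -0.05. The 23 background probe sets ran from -0.02 to 0.15 in this comparison, and their part in the OAZ1, SAT1 and SMS values was not tested.

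The 5 genes nearest to ODC1 were found by Euclidean distance in the pair of differences from Control, over 12232 genes and 3 arrays. They were DHRS2 at a distance of 0.0943, KLF10 at 0.165, LIG4 at 0.205, HSPA5 at 0.229 and GEM at 0.232. DHRS2, a short-chain dehydrogenase gene, differed by 1.23 with delta72 and 1.24 with WT. KLF10, a zinc finger transcription factor gene induced by TGF-beta, differed by 1.10 and 1.15. HSPA5, the gene of the main endoplasmic reticulum chaperone, differed by 1.19 and 0.93 and was, like ODC1, higher with delta72 than with WT, by 0.26. The other 4 had delta72 minus WT differences between -0.13 and -0.0057, where ODC1 had 0.12.

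**Figure D3:**
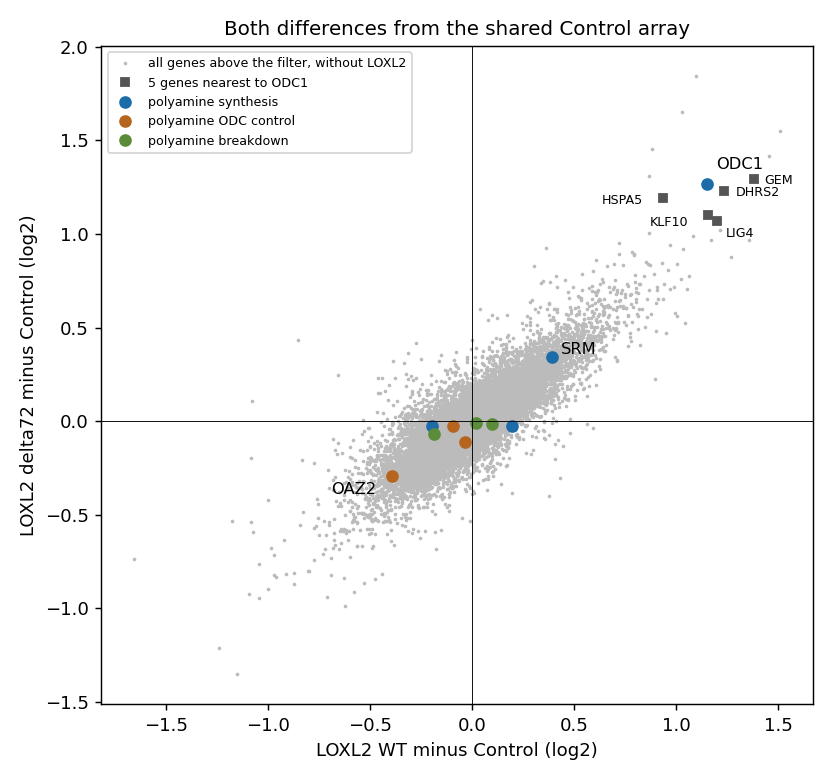
Log2 difference of LOXL2 delta72 from Control (vertical axis) against that of LOXL2 WT from Control (horizontal axis) for genes above the filter (grey, LOXL2 itself not drawn because it lies far outside), the 10 polyamine genes (coloured by role) and the 5 genes nearest to ODC1 (squares). Both axes use the same Control array, which draws points along the diagonal. ODC1 lies at 1.27 and 1.15, SRM at 0.34 and 0.39, OAZ2 at -0.29 and -0.39, and the other 7 near the centre.

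A wider list held 32 genes linked to the pathway, of which 29 were above the filter. Of these, 0 reached 1.5-fold in any of the 3 comparisons. With delta72 13 were higher and 16 lower than in Control, with a median of -0.01, and with WT the counts were again 13 and 16, with a median of -0.0063. The linked genes ran between -0.39 and 0.35 with delta72 and between -0.35 and 0.35 with WT, where ODC1 stood at 1.27 and 1.15.

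Ornithine, the substrate of ODC1, is supplied by arginase and by ornithine transport. The group listed under ornithine supply had 5 genes above the filter, among them AGMAT, the agmatinase gene, which does not itself supply ornithine. The group ran from -0.21 to 0.06 with delta72 and from -0.29 to 0.13 with WT, where AGMAT was the highest. Methionine supplies the aminopropyl groups, and the leftover methylthioadenosine is salvaged back to methionine. In the methionine cycle and salvage group 3 of 8 genes were higher with delta72 and 4 of 8 with WT. MAT2A, which makes S-adenosylmethionine, read 11.17 on the delta72 array, 11.27 on the WT array and 11.10 in Control cells, a difference of 0.08 and 0.17, with 2 of its 6 probe sets higher with delta72 and 4 with WT.

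Spermidine is also the source of hypusine, a modified lysine found on the translation factor EIF5A. EIF5A read 12.18 on both LOXL2 arrays and 12.28 on the Control array, a difference of -0.10 with either form, but only 2 of its 6 probe sets were lower in each comparison. The hypusine enzymes and factors ran from -0.17 to 0.07 with delta72 and from -0.31 to 0.28 with WT. Polyamine transport genes ran from -0.09 to 0.10 with delta72 and from -0.06 to 0.17 with WT.

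MYC read slightly below Control on both LOXL2 arrays. Its single probe set read 8.61 on the delta72 array, 8.65 on the WT array and 8.86 in Control cells, a difference of -0.25 with delta72 and -0.21 with WT. The WT difference is smaller in size than the largest background probe set difference of 0.285. The delta72 difference is larger in size than that of 0.173, where the SD over all genes was 0.225. Of the 4 listed genes of the MYC network, 1 was higher and 3 were lower with each form. MAX, named after its values were seen, was the higher gene. It differed by 0.33 and 0.35 in its brightest probe set, and 8 of its 12 probe sets were higher with each form. MXD1, also named after its values were seen, differed by -0.06 with delta72 and -0.35 with WT, lower in both of its probe sets. MYC protein and its activity were not measured.

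**Figure D4:**
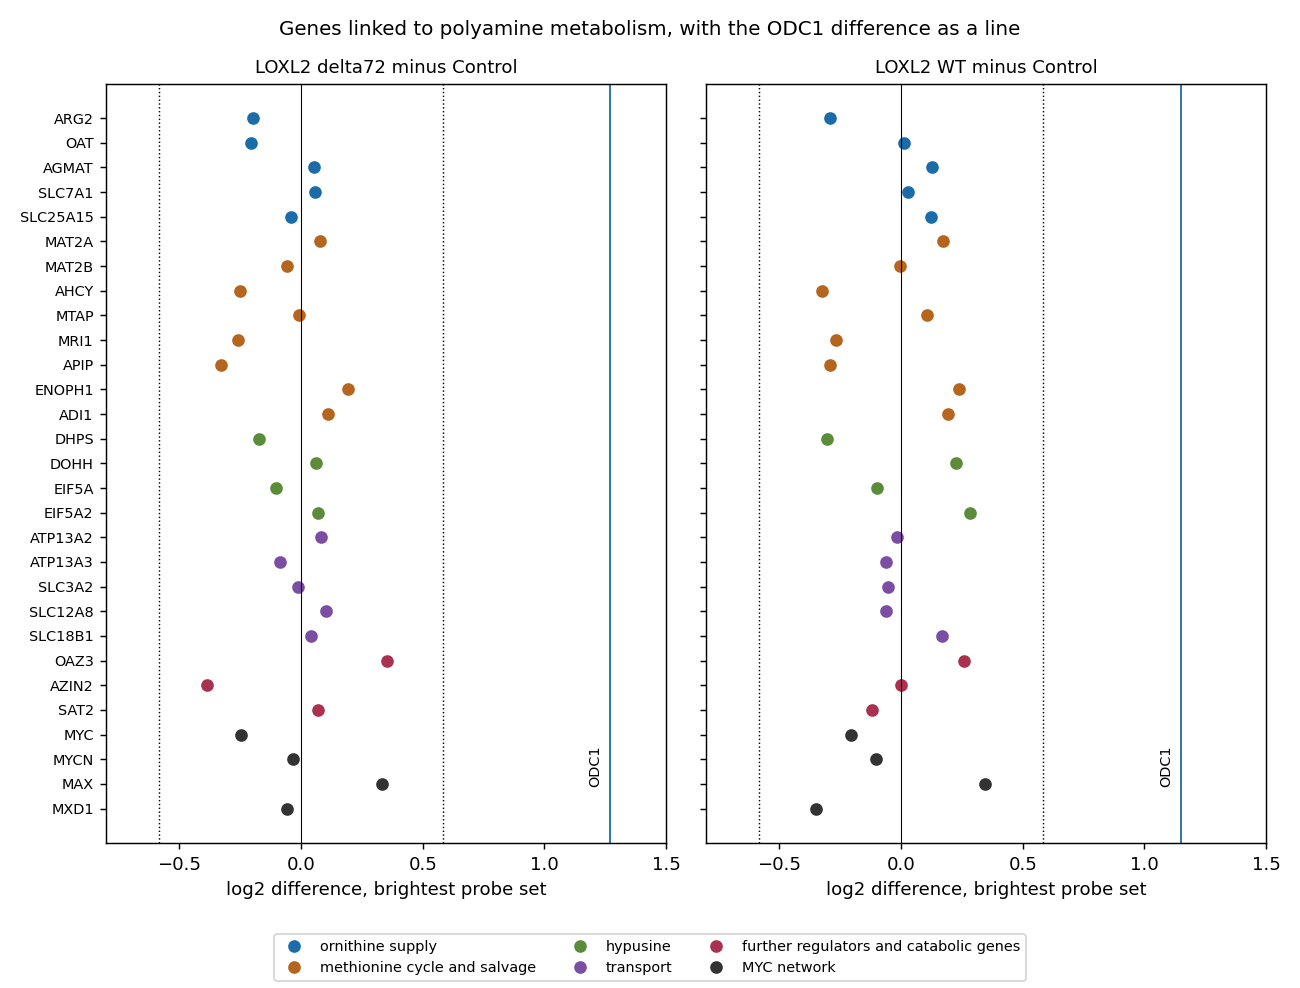
Log2 difference (horizontal axis, brightest probe set) of the 29 linked genes above the filter (rows, coloured by role) for LOXL2 delta72 minus Control and LOXL2 WT minus Control. The vertical blue line is ODC1, at 1.27 and 1.15, and dotted lines mark 1.5-fold, which none of the 29 genes reached.

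The arrays were read for their labels and scale. The transfected gene, LOXL2, read 14.06 on the delta72 array, 14.05 on the WT array and 7.46 in Control cells. The median over all probe sets lay between 5.93 and 5.95 on the 3 arrays. Of 8 squamous epithelial markers, 6 had a single-symbol probe set, and all 6 were above the filter, at 6.95 to 11.91 on the delta72 array, 7.08 to 11.95 on the WT array and 7.76 to 11.91 on the Control array. Markers of other cell types were mostly dim, with 1 of 5 fibroblast, 2 of 3 endothelial and 1 of 3 leukocyte markers above the filter and none of these above 6.08 on any array.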

How the data were processed

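RNA from KYSE150 cells was measured on 3 Affymetrix 3' expression arrays, 1 per group. Biotinylated cRNA was prepared from 100 ng of RNA, per the labels' protocols. The authors deposited 1 value per probe set and array, taken here as a log2 intensity. Partek and Affymetrix Expression Console are named, with no version, in the submitters' processing notes. How background correction, summarisation and normalization were done is not given in the sources, so any compression of dim probe sets is unknown, and a change common to most genes would not show. The number of arrays limits the precision.

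Of 49395 probe sets, 44988 had 1 symbol in the platform annotation, 1832 had several, 2473 were unlisted and 102 were Affymetrix controls. Genes were named from probe sets with 1 symbol, represented by the brightest probe set over the 3 arrays, and kept at or above the 40th percentile (log2 5.27). Differences, counts at 1.5-fold and 2-fold, ranks and medians were computed in Python 3.11.15 with pandas 2.3.3, and the counting was tested on simulated data. Named genes were all 10 pathway genes, MYC, MAT2A and EIF5A, linked genes past 1.5-fold (there were 0), the 5 genes nearest to ODC1, and LOXL2. Other linked genes are named outside this rule, after their values were seen. The pathway genes and lists were chosen with earlier results of these data known. Alternatives were a shift to a common median, quantile normalization, lowess (fraction 0.3), the median over probe sets, no filter, and the 60th percentile filter. The median over probe sets was taken of the intensities on each array, before differences were formed.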

Additional observations from a re-analysis of the deposited data

How the results depend on the processing

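Under the 6 alternatives the count of polyamine genes at least 1.5-fold higher was 1 against Control with either form and 0 between the forms, and 0 were at least 1.5-fold lower. ODC1 ran from 1.23 to 1.27 with delta72 and from 1.11 to 1.15 with WT, SRM from 0.31 to 0.40 and from 0.35 to 0.42, and OAZ2 from -0.32 to -0.23 and from -0.43 to -0.30. With the median over probe sets, the median of the 10 genes between the forms was 0.083, against 0.02 with the brightest probe sets. In that setting SAT1 was at -0.25 with delta72 and -0.39 with WT, SMOX at -0.24 with WT and 0.21 between the forms, and PAOX at 0.06 between the forms. This setting takes the median of the intensities on each array, over probe sets of unlike brightness. The median of the probe set differences was instead -0.07 with delta72 and -0.19 with WT for SAT1. For SMOX it was -0.17 with WT and 0.04 between the forms, and for PAOX -0.08 between the forms. Small differences changed sign in some settings: AMD1, OAZ1 and PAOX with delta72, SMOX with WT, and SMOX and PAOX between the forms. Over all genes, 22 were 1.5-fold higher and 5 lower with delta72 than with WT, against 40 and 16 without the filter, 11 and 0 with the 60th percentile filter, 15 and 3 with the median over probe sets, 19 and 7 after quantile normalization and 17 and 8 after lowess. No paired analysis was possible because each group has 1 array. Dim probe sets of SAT1, SMOX and PAOX below the filter limit what can be said of them.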

Other observations

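Among further regulators and breakdown genes, AZIN2, the second antizyme inhibitor gene, read 7.19 on the delta72 array, 7.57 on the WT array and 7.57 in Control cells in its brightest probe set. This was the lowest difference from Control of the 29 linked genes with delta72, at -0.39, and the gene was named after its values were seen. Of its 11 probe sets, 8 were lower with delta72 than in Control and 9 were lower with WT than in Control. Only 3 were lower with delta72 than with WT, so the brightest probe set does not stand for the others. OAZ3, an antizyme gene known for its expression in testis and also named after its values were seen, had the highest difference of the list with delta72, at 0.35, from a single probe set that read 5.80 on the delta72 array, 5.71 on the WT array and 5.45 in Control cells, close to the filter value of 5.27.

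The methionine salvage genes, also named after their values were seen, did not move as a block. APIP differed by -0.33 with delta72 and -0.29 with WT, and MRI1 by -0.26 and -0.27, with all 2 and all 3 of their probe sets lower. ENOPH1 differed by 0.19 and 0.24, and ADI1 by 0.11 and 0.19, with all 2 and all 3 of their probe sets higher. The probe sets of MTAP did not all agree. Its brightest differed by -0.01 with delta72, where 6 of 6 were lower, and by 0.11 with WT, where only 1 of 6 was higher. AHCY, which clears S-adenosylhomocysteine in the methionine cycle, differed by -0.25 and -0.32, lower in 3 of 3 probe sets with each form. The largest background probe set difference was 0.173 with delta72 and 0.285 with WT, and most background probe sets were lower on the LOXL2 arrays than on the Control array.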
